A study of Mus musculus with 24 samples.

Results

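Apolipoproteins are the protein part of lipoproteins, the particles that carry triglyceride and cholesterol in blood. Those of the A and C classes, apolipoprotein E and apolipoprotein M move between particles, activate or inhibit lipases and serve as ligands for receptors, whereas apolipoprotein B stays with the particle on which it was made. The liver is a main source of most of them, and the intestine makes several as well. Described here are 10 mouse genes of 56205 rows in the count table, chosen by symbol: Apoa1, Apoa2, Apoa4, Apoa5, Apoc1, Apoc2, Apoc3, Apoe, Apoh and Apom. All 10 were found and all 10 passed the filter on low counts. The rule uses the symbol and no measured value, although the set was drawn up with earlier results of these data known.

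Their places are given on GRCm38 from GENCODE release 21. On the plus strand lie Apoa1 at chr9:46228580-46230466, Apoa4 at chr9:46240696-46243459, Apoa5 at chr9:46268633-46271919, Apoa2 at chr1:171225054-171226379 and Apoh at chr11:108343354-108414396. On the minus strand lie Apoc3 at chr9:46232933-46235636, Apoe at chr7:19696109-19699188, Apoc1 at chr7:19689481-19692660, Apoc2 at chr7:19671579-19677941 and Apom at chr17:35128997-35132050. Apoa1, Apoc3, Apoa4 and Apoa5 form 1 cluster, and Apoe, Apoc1 and Apoc2 another.

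The libraries are 24 poly(A) libraries of whole liver from C57BL/6J mice. For 20 weeks 12 animals ate a control diet, and the other 12 ate a diet deficient in methionine and choline (MCD). Both sexes were used according to the series description, but the labels give no sex, age, litter or batch for a single library, and p-values below measure the spread between these libraries. The name MCD is that of the labels; the study's methods list the diet as high in fat, and its results name CDAHFD, a choline-deficient model with defined amino acids, so which diet was fed is not settled here. Total counts ran from 16793207 to 24915175 in control and from 16388650 to 24577848 in MCD libraries.

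One control library stood apart. With TMM scaling, control replicate 12 had the highest level of all 24 libraries for 9 of the 10 genes, the exception being Apoa4. With total counts alone this library was not the highest for Apoa5 or Apoh either. Its TMM factor, which rescales a library to the bulk of its genes, was 0.642, against 0.792 to 0.973 in the other 11 control libraries and 1.07 to 1.26 in the MCD libraries. Its mitochondrial share of counts, 5.34%, was the lowest of the control libraries. The mitochondrial share also differed by diet, with medians of 8.9% in control and 7.0% in MCD libraries, and the genes detected did not overlap, 17469 to 18799 in control and 18880 to 19830 in MCD libraries. The part of these differences in the results was not tested. In TMM-scaled CPM (a gene's counts relative to library size), its levels were 1.63 to 3.33 times the median of the other controls, and with scaling by total counts alone still 1.14 to 2.32 times. The log2 fold change of each of the 10 genes is therefore given with and without this library, as are the counts of the lists where it changed them.

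The TMM factors of the diets did not overlap, so the scaling bears on every diet difference in level. Hepatocyte markers were read as a check of the tissue: all 12 were measured, from albumin at 79836 CPM in control livers downwards, and 7 fell and 1 rose in MCD livers (8 and 1 without control replicate 12), whereas with total counts alone 0 fell (edgeR; 4 were lower at an unadjusted p under 0.05) and 2 rose. With TMM scaling their summed level ran from 98906 to 197596 CPM in control libraries, highest in replicate 12, and from 79361 to 118051 CPM in MCD libraries. In bulk liver, fewer hepatocytes and less RNA per hepatocyte cannot be told apart, and the falls counted here depended on the scaling.

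The first comparison asked which apolipoprotein mRNAs differed between diets. In MCD livers 5 of the 10 fell and 0 rose (0 also at an unadjusted p under 0.05, and 0 by DESeq2 and limma-voom). The 5 were Apoa4, Apoh, Apoa2, Apoc3 and Apoc1, and the fitted MCD level was between 41.8% and 69.9% of the control level (edgeR quasi-likelihood test, Benjamini-Hochberg FDR of 0.01 or less and absolute log2 fold change above 0.5). Over all 14109 genes tested, 19.1% were lower and 19.2% higher at the same limits. The median log2 fold change of the 10 genes was -0.47, beside -0.10 for all genes tested. Without control replicate 12 these medians were -0.26 and -0.04, and by total counts -0.05 and 0.27. The point estimate was below 0 for all 10 in this fit. For Apoa1 it was above 0 in 8 of 9 other fits of the 24 libraries, whether the scaling, the filter or the model was changed, and for Apoa5, Apoc2 and Apom it was above 0 with total counts.

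**Figure D1:**
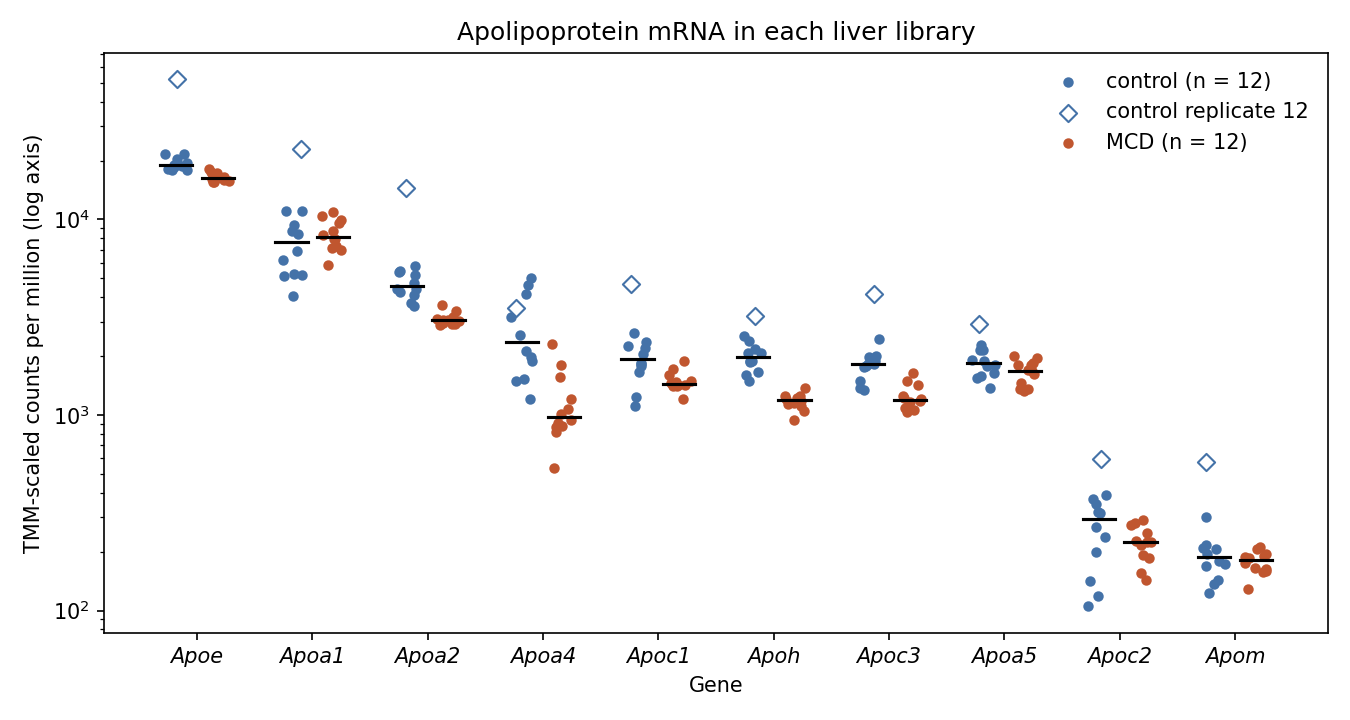
TMM-scaled CPM (log axis) of the 10 apolipoprotein genes in each of 24 liver libraries; points are libraries, bars are medians, and the open diamond is control replicate 12. All 12 MCD libraries sit below all 12 control libraries for Apoh, while for Apoa1 all 12 MCD libraries lie within the control range.

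Apoa4 encodes apolipoprotein A-IV, a protein of chylomicrons and high-density lipoprotein (HDL). It had the largest difference of the 10. In control livers the lowest, median and highest values were 1201, 2351 and 5044 CPM. In MCD livers they were 534, 978 and 2312 CPM. Control livers were widely spread, and 8 of 12 MCD libraries lay below every control library while 4 overlapped the control range; by total counts 5 lay below. The log2 fold change was -1.26 (SE 0.25, FDR 7.63e-05 by edgeR), and -1.19 (FDR 0.00018) without control replicate 12. It was the 1 gene of the 10 that still passed both limits with total counts alone, at -0.91 (FDR 0.00219). The exons of Apoa4 overlap those of Gm10680 and Gm47528 on the opposite strand, and whether the counting used strand is not stated. Gm10680 had counts of 0 to 4385, at most 9.46% of the Apoa4 count of the same library. Apoa5 and Apoh also overlap genes on the opposite strand, Gm47544 with at most 11 counts and Prkca over 30 exonic bases with 119 to 486 counts.

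Apoh encodes apolipoprotein H (beta-2-glycoprotein I), a plasma protein that binds phospholipid surfaces. Control livers ranged from 1497 through a median of 1986 to 3196 CPM. MCD livers ranged from 946 through 1192 to 1369 CPM. With TMM scaling the diets did not overlap: all 12 MCD libraries were below all 12 control libraries, a separation seen in 4.88% of genes tested. By total counts 11 MCD libraries were below every control library and 1 overlapped. MCD differed from control by -0.82 on the log2 scale (SE 0.10, FDR 1.53e-07 by edgeR) with all libraries and -0.71 (FDR 4.54e-08) without control replicate 12. With total counts it was -0.43 (FDR 2.25e-06), which did not pass the fold limit.

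Apoa2 encodes apolipoprotein A-II, the second most abundant protein of HDL after apolipoprotein A-I. Control livers ranged from 3595 through 4588 to 14493 CPM, the highest being replicate 12 and the next 5752 CPM. MCD livers lay close together, from 2873 through 3058 to 3632 CPM. In 11 of 12 MCD libraries the level was below every control library, and in 6 by total counts. The log2 fold change was -0.82 (SE 0.17, FDR 0.000141 by edgeR), and -0.55 (FDR 7.33e-07) without control replicate 12. With total counts it was -0.39 (FDR 0.00574), short of the fold limit.

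Apoc3 encodes apolipoprotein C-III, an inhibitor of lipoprotein lipase and of remnant uptake. Control livers ranged from 1339 through 1826 to 4156 CPM. MCD livers ranged from 1031 through 1200 to 1630 CPM. The level was below every control library in 9 of 12 MCD libraries, and in 4 by total counts. The diet difference was -0.68 on the log2 scale (SE 0.14, FDR 0.000178 by edgeR). Omitting control replicate 12 gave -0.50 (FDR 6.57e-05), just inside the fold limit and so no longer called, and with total counts it was -0.28 (FDR 0.0221).

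Apoc1, which encodes apolipoprotein C-I, an inhibitor of lipoprotein binding to receptors, was the least secure of the 5. Control livers ranged from 1111 through 1941 to 4698 CPM. MCD livers ranged from 1205 through 1441 to 1883 CPM, all 12 within the control range. The log2 fold change was -0.52 (SE 0.16, FDR 0.00679 by edgeR). The call was lost in all 9 other fits with the 24 libraries, and it held in 10 of 24 fits with 1 library omitted. Omitting control replicate 12 gave -0.32 (FDR 0.0165).

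Apoe encodes apolipoprotein E, the ligand through which remnants are taken up by the LDL receptor and its relatives. It was the most abundant of the 10. Control livers ranged from 17801 through 18911 to 52065 CPM, and without replicate 12 the highest was 21659 CPM. MCD livers ranged from 15472 through 16289 to 18162 CPM. The TMM-scaled level was below every control library in 11 of 12 MCD libraries, but in 0 of 12 by total counts. On the log2 scale the difference was -0.42 (SE 0.14, FDR 0.0111 by edgeR), which missed both limits. Omitting control replicate 12 gave -0.20 (FDR 0.00305), inside the fold limit, and with total counts -0.01 (FDR 0.949).

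Macrophages also make apolipoprotein E, and their markers moved with diet. Of 14 macrophage markers 9 rose and 4 fell (9 and 1 with total counts alone), and their summed level was 255 to 693 CPM in control and 1806 to 3678 CPM in MCD libraries. The 4 that fell, Clec4f, Timd4, Vsig4 and Marco, are known from resident Kupffer cells, as is Cd5l, at a log2 fold change of 0.01 (FDR 0.967 by edgeR). The 1 that fell with total counts alone was Timd4. The part of these cells in the Apoe value was not tested.

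Apoa1, the gene of apolipoprotein A-I and the main structural protein of HDL, did not pass in either direction. Control livers ranged from 4060 through 7642 to 23001 CPM, and MCD livers from 5870 through 8146 to 10914 CPM, all within the control range. The log2 fold change was -0.05 (SE 0.21, 95% confidence interval -0.48 to 0.38, FDR 0.860 by edgeR), and 0.22 (FDR 0.201) without control replicate 12. With total counts it was 0.38 (FDR 0.0403), and with total counts and without replicate 12, a setting chosen after the values were seen, it was 0.53 (FDR 0.00116), past both limits.

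The other three did not pass. Apoa5, whose product promotes lipolysis of triglyceride-rich particles, had a median of 1837 CPM in control and 1688 CPM in MCD livers, with a log2 fold change of -0.21 (SE 0.11, FDR 0.091 by edgeR). Apoc2, whose product is the cofactor of lipoprotein lipase, had medians of 293 and 224 CPM and a log2 fold change of -0.36 (SE 0.21, FDR 0.143). Apom, whose product carries sphingosine-1-phosphate on HDL, had medians of 187 and 181 CPM and a log2 fold change of -0.31 (SE 0.18, FDR 0.149). Their 95% confidence intervals were -0.43 to 0.01, -0.80 to 0.08 and -0.68 to 0.07, and those of Apoc2 and Apom reach past the fold limit. Without control replicate 12 the values were -0.11, -0.17 and -0.04.

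**Figure D2:**
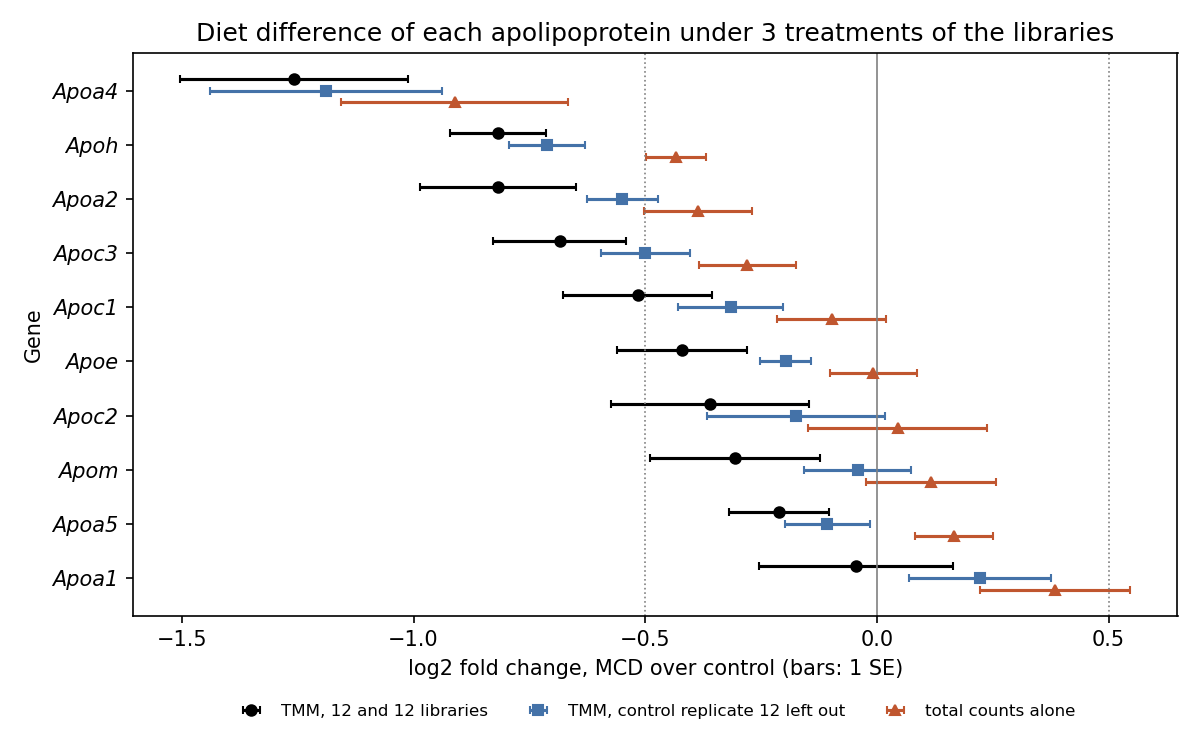
log2 fold change (MCD over control, x axis) of each gene with all libraries and TMM factors, without control replicate 12, and with total counts alone; bars are 1 SE and dotted lines mark the fold limit of 0.5. Apoa4 stays below -0.5 in all 3, while Apoa1 lies on both sides of 0.

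The scaling also moved the whole comparison. With total counts alone, 6.01% of genes were lower, and 1 of the 10 fell. The median of all genes shifted up by 0.37 on the log2 scale, and the split of called genes went from 2712 higher and 2688 lower to 4539 higher and 848 lower. Upper-quartile factors shifted the median by 0.15 and gave 3261 higher and 1710 lower, with 4 of the 10 genes falling. Without control replicate 12, 17.9% of genes were lower, and 3 of the 10 fell: Apoa2, Apoa4 and Apoh.

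Summed, the 10 genes held 4.05% ± 0.97 (SD, n = 12) of all counts in control and 3.98% ± 0.174 (SD, n = 12) in MCD livers, and 3.79% ± 0.304 (SD, n = 11) in control livers without replicate 12; this share is the level scaled by total counts. The share of each gene in the summed counts of the 10 does not depend on the scaling of a library. Apoe held 46.4% ± 3.90 in control and 47.0% ± 2.79 in MCD livers (SD, n = 12 each). The share of Apoa1 was 17.6% ± 4.23 in control and 23.9% ± 3.47 in MCD livers, and in 5 of 12 MCD libraries it was above every control library. The share of Apoa4 was 6.21% ± 3.15 in control and 3.27% ± 1.27 in MCD livers, and in 3 MCD libraries it was below every control library. The share of Apoa5 was 4.22% ± 0.640 in control and 4.72% ± 0.527 in MCD livers, and in 6 of 12 MCD libraries it was above every control library. Apoc3 held 4.23% ± 0.562 and 3.52% ± 0.438, and 6 of 12 MCD libraries were below every control library. Apoa2 held 11.3% ± 1.20 and 8.86% ± 0.688, with 2 MCD libraries below every control library, and Apoh 4.55% ± 0.744 and 3.35% ± 0.228, with 0 MCD libraries below every control library and 11 below every control library other than replicate 12. Without replicate 12 the control means were 17.3% for Apoa1, 6.48% for Apoa4, 4.36% for Apoa5, 4.27% for Apoc3, 11.1% for Apoa2 and 4.69% for Apoh. The shares are descriptions, with no test.

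**Figure D3:**
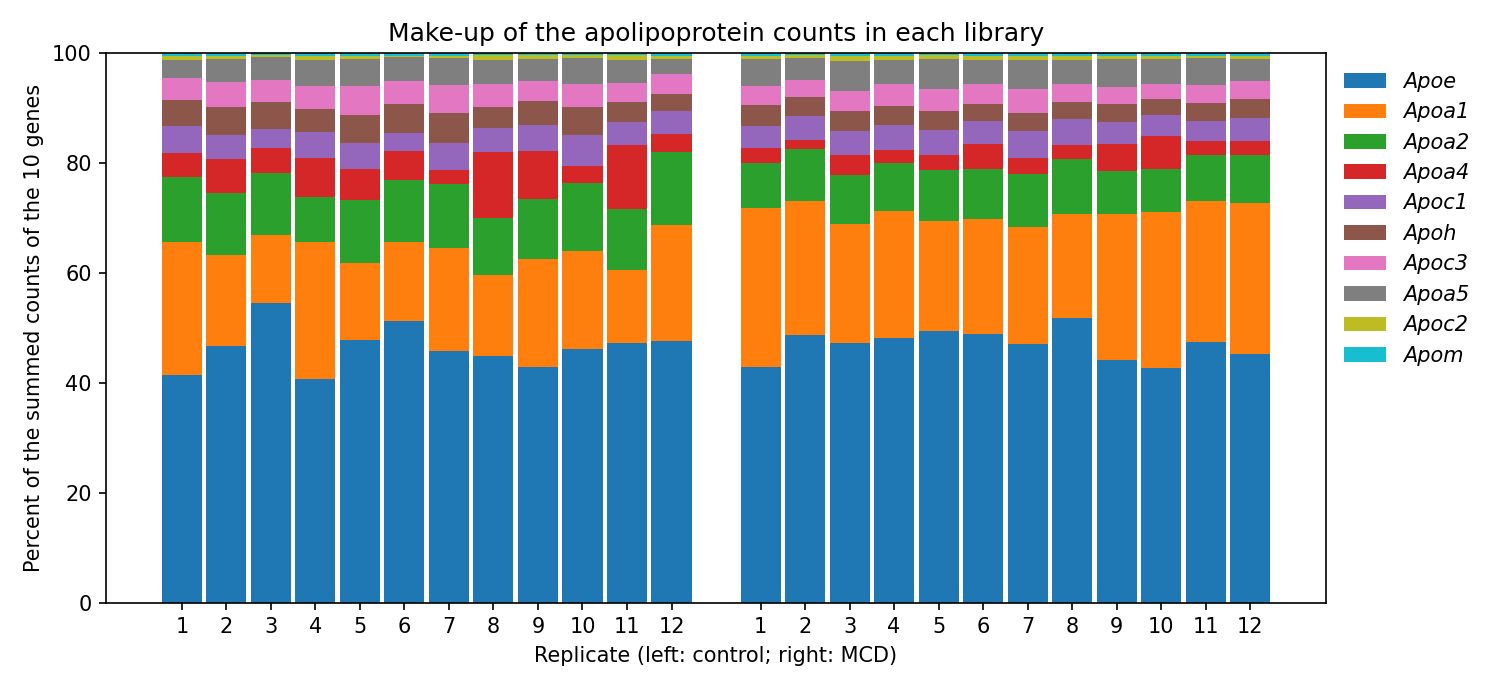
Percent of the summed counts of the 10 genes (y axis) held by each gene in the 12 control (left) and 12 MCD (right) libraries. Apoe held 46.4% on average in control and 47.0% in MCD livers, while Apoa1 took a larger and Apoa4 a smaller mean share in MCD livers.

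Levels of different genes were compared per kilobase of the principal transcript. In control livers Apoe had the highest level, 15639 ± 6782 CPM per kb (SD, n = 12), above Apoa2 in all 12 libraries. Without replicate 12 it was 13699 ± 960 CPM per kb (SD, n = 11). Apoa2 was above Apoa1 in 10 of 12 control libraries, whereas in MCD livers Apoa1 was above Apoa2 in 11 of 12. Apoc1 and Apoc3 were neighbours in the order in both diets; Apoc1 was the higher in 7 of 12 control libraries, so the pair did not separate there, and in 12 of 12 MCD libraries. Apom had the lowest mean in both diets, below Apoc2 in 10 of 12 control and 12 of 12 MCD libraries, at 216 ± 120 and 175 ± 23.4 CPM per kb (184 ± 48.0 in control livers without replicate 12). The order of the control means was the same without that library.

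Within a diet the genes differed in how tightly they were held. Without replicate 12, the coefficient of variation over the control livers was 7.01% for Apoe and 15.4% for Apoa2, but 33.2% for Apoa1, 40.2% for Apoc2 and 49.8% for Apoa4. In MCD livers it was 5.10% for Apoe, 7.06% for Apoa2, 18.1% for Apoa1, 21.1% for Apoc2 and 42.9% for Apoa4. By these TMM-scaled values Apoa4 was the most variable of the 10 in both diets. With replicate 12 in, Apoa1 was the most variable in control livers on the same scale, at 58.4%. Coefficients with total counts alone were not computed.

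With TMM scaling, Apoa2 and Apoe moved most closely together of the members across the libraries. Which members were closest with total counts alone was not computed. As a description with shared scaling, log2 CPM of Apoa2 and Apoe, centred within each diet, had a Pearson r of 0.96 over 24 libraries. Without control replicate 12, Apoa2 and Apoe had r = 0.82 over 23 libraries. Their promoters are shown because of this pair, as 200 bases before the annotated start (RefSeq, GRCm38.p6), 5′ to 3′, at chr1:171224854-171225053 on the plus strand for Apoa2 and at chr7:19699189-19699388 on the minus strand for Apoe. Capitals mark matches to any of 4 motifs searched on both strands.
Apoa2: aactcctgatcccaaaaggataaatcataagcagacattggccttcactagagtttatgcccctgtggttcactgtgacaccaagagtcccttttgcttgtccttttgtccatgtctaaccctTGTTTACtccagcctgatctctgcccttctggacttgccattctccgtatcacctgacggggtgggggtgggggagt
Apoe: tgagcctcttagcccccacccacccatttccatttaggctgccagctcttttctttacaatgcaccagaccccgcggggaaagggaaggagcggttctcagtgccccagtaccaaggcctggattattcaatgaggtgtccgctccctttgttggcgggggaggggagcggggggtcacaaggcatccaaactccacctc
The motifs were TATAAA, the TATA box; AGGTCA, a nuclear receptor half-site; CACGTG, an E-box; and TGTTTAC, a forkhead motif. They occur in 9.96%, 11.4%, 5.26% and 2.51% of 32843 listed promoters over the same 200 bases. Apoa2 held 1 forkhead match and Apoe held 0 of the 4 motifs. A match is not a binding site, and no match says only that these letters are not in this window.

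Several members are neighbours in the genome: Apoa1, Apoc3, Apoa4 and Apoa5 on chromosome 9, and Apoe, Apoc1 and Apoc2 on chromosome 7 (GENCODE release 21, GRCm38). Log2 CPM of 9 neighbour pairs were correlated within each diet, 18 relations in all, with two-sided permutation tests of 100000 resamples and Benjamini-Hochberg adjustment over the 18. Pearson's r passed an adjusted p of 0.05 in 5 control relations and 1 MCD relation, and Spearman's rho in 1. With total counts alone, r passed adjusted in 0 of 18 (4 unadjusted) and rho in 1, that of Apoc3 and Apoa5 in control livers (rho = 0.832, adjusted permutation p = 0.0211). Without control replicate 12, r passed in 1 of 9 control relations, that of Apoc3 and Apoa5.

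Apoc3 and Apoa5 had r = 0.887 (permutation p = 0.00023, adjusted 0.00414) and rho = 0.727 (adjusted p = 0.0854) in control livers, and r = 0.701 without the 2 libraries farthest from the Apoc3 median. Without control replicate 12, r was 0.789 (adjusted permutation p = 0.0351). In MCD livers r was 0.653 (adjusted permutation p = 0.0559). Apoe and Apoc1 had r = 0.813 (adjusted permutation p = 0.0054) and rho = 0.804 (adjusted p = 0.0439) in control livers, and r = 0.701 (adjusted permutation p = 0.0327) and rho = 0.455 in MCD livers. Leaving out the 2 farthest libraries gave r = 0.556 and r = 0.292, so the MCD relation rests on those libraries with TMM. Scaled by total counts, the MCD relation had r = 0.654 (adjusted permutation p = 0.117) and rho = 0.727 (adjusted p = 0.0852), and r = 0.676 without its 2 farthest libraries. With total counts alone the control relation of Apoe and Apoc1 had r = 0.601 and rho = 0.168, and without replicate 12 as well r = -0.075, so it did not hold there. The control relations of Apoa1 with Apoc3 (r = 0.833), Apoa1 with Apoa5 (r = 0.798) and Apoc1 with Apoc2 (r = 0.708) fell to 0.448, 0.427 and 0.329 without the 2 farthest libraries. For Apoa1 and Apoa5 without control replicate 12, r was 0.604 (adjusted permutation p = 0.118), and 0.834 when the 2 farthest of the remaining libraries were left out. Apoa4 was not related to its neighbours at the adjusted limit in either diet, with r between -0.0023 and 0.411. For Apoc3 and Apoa4 in control livers, r was -0.618 without the 2 farthest libraries. Without control replicate 12 it was -0.337 (adjusted permutation p = 0.467).

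By the naming rule, the non-member whose log2 CPM moved most like a member after centring within diet was as follows, over 24 libraries. For Apoa2 it was Park7 (r = 0.98; without control replicate 12 r = 0.92), and for Apoe Aes (r = 0.97). For Apoa1 it was Serpina1a (r = 0.94), for Apom F10 (r = 0.94; without replicate 12 r = 0.87), for Apoh Serpina1b (r = 0.94), for Apoc1 Atp5o (r = 0.95) and for Apoc3 D10Jhu81e (r = 0.92). For Apoa4 it was Slc25a47 (r = 0.82), for Apoa5 Ppp1r10 (r = 0.84; without replicate 12 r = 0.84), and for Apoc2 S100a10 (r = 0.85). Without control replicate 12 another gene took the first place for Apoa1, Apoa4, Apoc1, Apoc2, Apoc3, Apoe and Apoh.

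Libraries also varied along a sex-linked expression score, the log2 CPM of Xist minus the mean of 4 Y-linked genes, rescaled to run from 0 to 1. Each diet held 6 libraries with a score of up to 0.140 and 6 from 0.914. For the score term 0 of the 10 passed (1 at an unadjusted p under 0.05), against 2.93% of genes, and Apoa1 had the largest change over the score range, -0.57 (SE 0.22, FDR 0.111 by edgeR), although with total counts Apoa4 (-0.43) exceeded Apoa1 (-0.40). For the difference in diet effect along the score, 0 of the 10 passed, against 0.411% of genes, though 3 of the 10 had an unadjusted p under 0.05.

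Apoc2 came nearest, with a diet by score term of 1.62 (SE 0.36, FDR 0.0238 by edgeR). In control livers it ran from 269 to 594 CPM in the 6 low-score libraries, replicate 12 being the highest, and from 105 to 318 CPM in the 6 high-score libraries. In MCD livers the ranges were 144 to 249 CPM and 223 to 290 CPM. The Apoc2 exons share 646 bases with Gm44805 on the same strand, which had 184 to 570 counts per library.

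**Figure D4:**
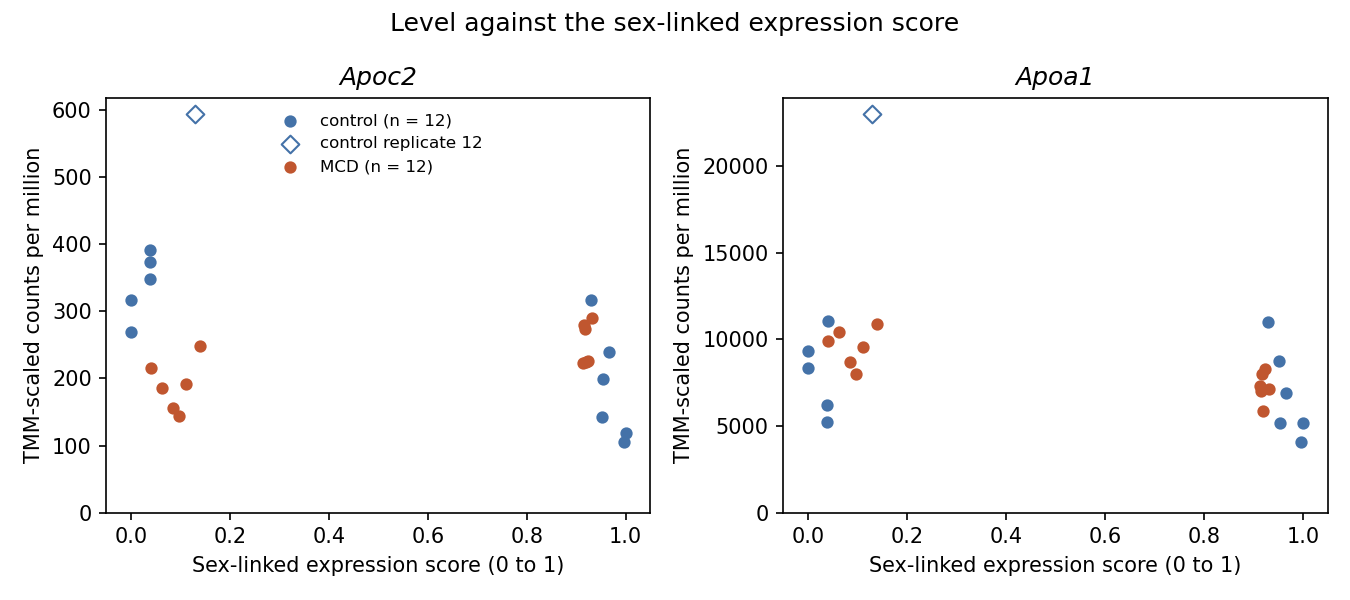
TMM-scaled CPM (y axis) of Apoc2 and Apoa1 against the sex-linked expression score (x axis) in each library; the open diamond is control replicate 12. The low-score control libraries for Apoc2 sit at 269 to 594 CPM, while the low-score MCD libraries sit at 144 to 249 CPM.

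The other genes of lipoprotein metabolism were read from lists. Of 18 tested genes in a list of other apolipoproteins and HDL proteins 4 rose and 5 fell, with a median log2 fold change of -0.40; Apod and Apol6 were too low to test. Serum amyloid A genes Saa1 and Saa2, acute-phase proteins carried on HDL, rose by 1.55 (SE 0.33) and 1.49 (SE 0.31) on the log2 scale. Pltp, the phospholipid transfer protein, fell by 1.46 (SE 0.20), and Apol7a fell by 0.83 (SE 0.14). Apob, the gene left out of the 10, fell by 0.79 (SE 0.10). Scaled by total counts, Apol7a was at -0.44 (FDR 0.00297 by edgeR) and Apob at -0.43 (FDR 0.000306), both short of the fold limit. With total counts alone 5 rose and 1 fell in this list, and without control replicate 12, 5 rose and 5 fell.

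Of 11 genes of HDL formation and uptake 7 fell and 2 rose, with a median of -0.64. Pltp and Lipc, the hepatic lipase (-1.07, SE 0.16), had the largest falls, and Pcolce (1.10, SE 0.17) and the cholesterol exporter Abcg1 (0.93, SE 0.14) rose. By total counts alone 2 fell and 3 rose, and without control replicate 12, 6 fell and 2 rose. Of 17 tested genes for clearance of triglyceride-rich lipoproteins 6 fell and 3 rose, with a median of -0.23 (0.10 by total counts, -0.16 without control replicate 12); Vldlr, a receptor, fell by 1.78 (SE 0.41), while Lpl, lipoprotein lipase itself, rose by 3.20 (SE 0.32) and the sorting receptor Sort1 rose by 1.51 (SE 0.13). In that list 5 fell and 6 rose with total counts alone, and 5 fell and 4 rose of 18 tested without control replicate 12.

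Of 14 genes of ApoB lipoprotein assembly 7 fell and 1 rose, with a median of -0.62; by total counts 5 fell and 1 rose, with a median of -0.23. Mttp, which loads lipid onto apolipoprotein B, fell by 1.29 (SE 0.11), and Tm6sf2 fell by 1.07 (SE 0.20), while Apobec1, which edits the Apob mRNA, rose by 1.08 (SE 0.12). Of 32 regulators known from apolipoprotein genes 15 fell and 0 rose (3 were higher at an unadjusted p under 0.05 by edgeR), with a median of -0.49, led by the fatty-acid receptor Ppara (-1.76, SE 0.20) and by Srebf1, a lipogenic factor (-1.60, SE 0.20). With total counts alone 4 of these 32 fell and 4 rose, and without control replicate 12, 15 fell and 3 rose.

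**Figure D5:**
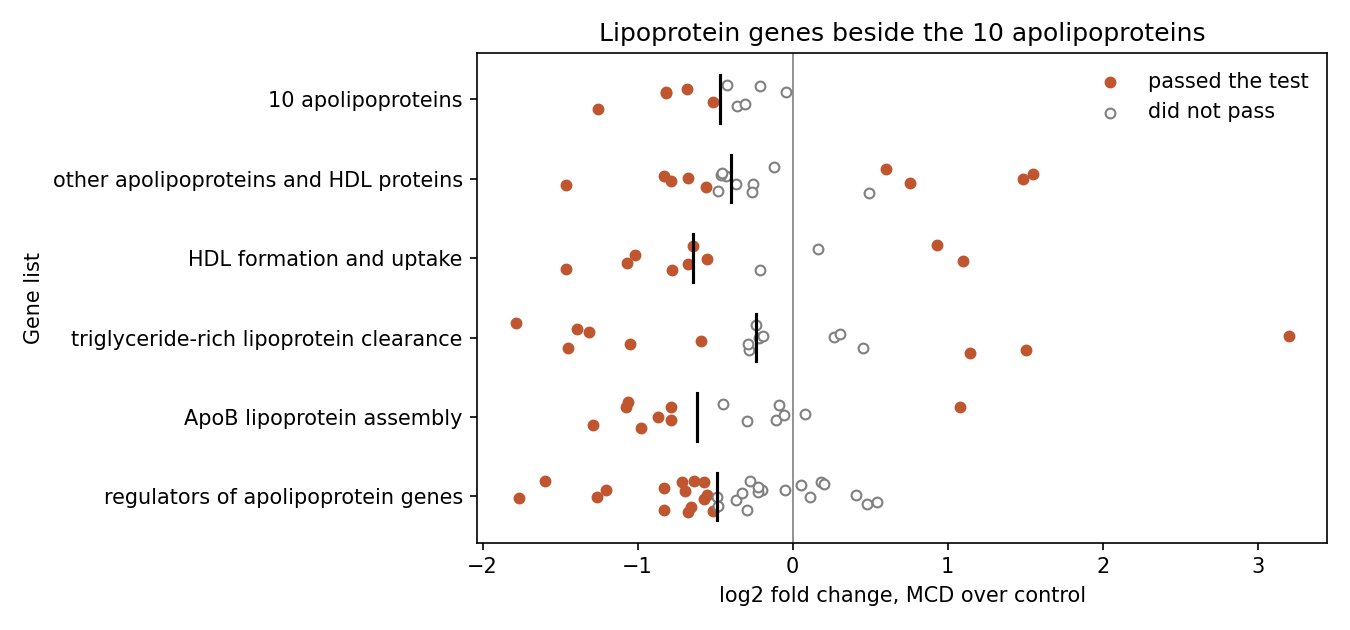
log2 fold change (MCD over control, x axis) of the 10 apolipoproteins and of 5 lists of lipoprotein genes; filled points passed the test, open points did not, and the black bars are list medians. With the TMM scaling plotted, the medians run from -0.64 to -0.23, beside -0.47 for the 10 apolipoproteins; by total counts they run from -0.29 to 0.10, beside -0.05.

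Markers of other cells were read because intestine or other tissue could add apolipoprotein mRNA. Of 8 enterocyte markers 3 were tested; Cdx2 and Alpi were at 0 in every library, and Cdx1 had 4 counts in all. Vil1 rose by 3.84 (SE 0.27), from a mean of 0.172 to 2.54 CPM. Fabp2 fell by 0.66 on the log2 scale. With total counts alone Fabp2 was at -0.24 (FDR 0.145 by edgeR), and without control replicate 12 at -0.49, short of the fold limit. Lgr5 was at -0.51 (FDR 0.0121 by edgeR). Without control replicate 12 Lgr5 was at -0.52 (FDR 0.00866), where it passed both limits. The summed level was 59.5 to 193 CPM in control libraries, highest in replicate 12, and 46.2 to 94.5 CPM in MCD libraries. Most of this sum was Fabp2, at a mean of 94.8 CPM in control and 59.9 CPM in MCD livers. Whether these counts came from intestine was not tested. In the other lists, 9 of 11 mesenchymal markers rose and 1 fell (9 and 0 with total counts alone). Of 6 cholangiocyte markers 5 rose (6 with total counts alone, and 6 without control replicate 12). Of 6 tested lymphocyte markers 3 rose (4 with total counts alone). Of 6 endothelial markers 5 fell (2 with total counts alone, 4 without control replicate 12). The part of these cells, and of macrophages, in the differences of the apolipoproteins and of the lipoprotein gene lists was not tested.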

How the data were processed

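Poly(A) RNA of 24 mouse livers was sequenced. The file the authors deposited gives unnormalized read counts by Ensembl identifier, with a column for every library; the submitters' processing notes name bcl2fastq, STAR 2.7.3a and mm10, while the study's methods name a stranded kit without giving the species, and a counting program and an annotation release for human reads. How the mouse reads were counted, and whether by strand, is not given in the sources used here. Symbols and coordinates came from GENCODE mouse release 21, which named 51745 of 56205 rows; rows without a symbol held 0.0808% of counts.

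Counts were fitted in R 4.3.3 with edgeR 4.0.16 (filterByExpr by diet, TMM factors, glmQLFit, glmQLFTest) over 14109 genes, adjusted over all of them. A call needed both an FDR no higher than 0.01 and a log2 fold change beyond 0.5 in size; SE is the size of that change over the root of the F statistic. Between libraries of a diet, edgeR estimated a biological coefficient of variation of 26.8%. On simulated counts of 14109 genes the fit recovered 89 of 100 genes changed by 1 on the log2 scale. It recovered 99 of 100 changed by 2, with 0 unchanged genes called. Recovery of differences below 1, the size of most member differences here, was not tested. The choice of scaling was not tested on these counts either. Alternatives were other scalings, other low-count filters, DESeq2 1.42.0, limma-voom (limma 3.58.1), a replicate block, the sex-linked score as covariate, other limits, and omission of each library. Permutations used Python 3.11.15 with numpy 2.4.6, and figures matplotlib 3.10.9. Members, lists and tests were chosen with earlier results of these data known. Named were all members, the 2 called genes with the largest rise and fall per list, genes of the other-apolipoprotein list, and the most alike gene of each member with a mean of at least 5 CPM; the macrophage markers and the markers at or near 0 were named after their values were seen. The values of 1 gene that this rule names are not reported here. No pair of libraries was identical (0 pairs); the lowest dispersion index within a diet was 11.4. Precision is set by the spread of libraries: the lowest member count was 1878.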

Additional observations from a re-analysis of the deposited data

How the results depend on the processing

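The count of genes that fell (5) was 1 with total counts alone and 1 with a log2 limit of 1, and 3 to 5 when each library was left out in turn, 3 without control replicate 12. With total counts alone and also without control replicate 12, an alternative chosen after seeing the data, 1 fell and 1 rose (Apoa1).

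Apoa1 turned above 0 with upper-quartile (0.12) and relative log expression factors (0.012), total counts (0.38), limma-voom (0.094), DESeq2 (0.012), a floor of 10 counts in every library (0.042), no filter (0.0097) and the replicate block (0.10), with total counts and without control replicate 12 (0.53), and ran from -0.10 to 0.22 over the fits that left out 1 library. With total counts, values above 0 were found for Apoa5 (0.17), Apoc2 (0.045) and Apom (0.12), and without replicate 12 as well 0.18, 0.12 and 0.25, and 0.10 for Apoe. Calls were lost with total counts for Apoa2 (-0.39), Apoh (-0.43), Apoc3 (-0.28) and Apoc1 (-0.10), and without replicate 12 as well at -0.25, -0.41, -0.20 and -0.0077. A log2 limit of 1 dropped Apoa2 (-0.82), Apoh (-0.82), Apoc3 (-0.68) and Apoc1 (-0.52), and dropping the fold limit at an FDR of 0.05 added Apoe (-0.42).

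Apoc1 also lost its call with upper-quartile (-0.36) and relative log expression factors (-0.46), a floor of 10 counts (-0.43), no filter (-0.46), DESeq2 (-0.46), limma-voom (-0.43), the replicate block (-0.42) and the score as covariate (-0.49), and ran from -0.58 to -0.32 with 1 library left out. Apoc3 ran from -0.73 to -0.50 with 1 library left out. The cause was not tested. Along the score, total counts reversed Apoa5 (0.085), Apoh (0.036) and Apom (0.12), and among neighbours Apoa1 with Apoa5 (r = -0.11) and Apoc3 with Apoa4 (r = -0.11) in MCD.

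With the replicate block 4 genes fell. Replicate numbers did not meet the criterion for pairing, an r above 0.1 in every pair: 8 of 12 exceeded it (range -0.28 to 0.35), with a median of 0.23 against -0.06 between other numbers. The sex-linked score was alike in 10 of 12 numbers, and 3 libraries matched their own number best.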
